A study of Homo sapiens with 5 samples.

Results

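DNA repair and growth arrest are a pair of responses that p53 sets in motion after DNA damage, and 7 of its target genes were followed here through 4 ChIP-seq lists of binding sites, for p53 and for the histone H3K27 demethylase JMJD3, in telomerase-immortalized human BJ fibroblasts. ChIP-seq pulls down the DNA fragments that a protein is cross-linked to with an antibody and sequences them, and a peak caller then lists the stretches with many fragments as binding sites. The genes were chosen by name, and every site with at least 1 bp within 50 kb of an approximate transcription start on the hg18 assembly was counted. The starts were DDB2 on chromosome 11 at 47193070, XPC on chromosome 3 at 14195140, POLH on chromosome 6 at 43651860, RRM2B on chromosome 8 at 103320520, GADD45A on chromosome 1 at 67923470, BTG2 on chromosome 1 at 201541290 and SESN1 on chromosome 6 at 109522700. The windows held 58 of the 43443 sites in the 4 lists, which were 3 of 361 p53 sites of untreated cells, 9 of 3232 p53 sites after ionizing radiation (IR), 3 of 4717 JMJD3 sites of untreated cells and 43 of 35133 JMJD3 sites after IR. The groups were untreated cells and cells exposed to 10 Gy of X-rays, each immunoprecipitated with the DO-1 antibody against p53 or with a rabbit antibody against JMJD3. Both exposures used the same cell line, human foreskin fibroblasts that carry hTERT. The irradiated cells were harvested 6 h after IR by the sample labels, and the study's text gives an earlier time. There was 1 library for each antibody and exposure, so no difference between conditions had a replicate check and no test was made. A site in these lists has a position and no height, which leaves only presence, place and width to compare. Depth per library is unknown.

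DNA breaks switch on kinases that stabilise p53, and the protein then turns on genes that halt the cell cycle, mend the damage or remove the cell. The 7 genes cover the repair and arrest side of that programme. DDB2 and XPC recognise damaged bases at the first step of global nucleotide excision repair. POLH encodes DNA polymerase eta, which copies past ultraviolet photoproducts, and RRM2B encodes p53R2, the p53-inducible small subunit of ribonucleotide reductase that supplies deoxynucleotides for repair. GADD45A is a growth-arrest and stress-signalling protein, BTG2 an antiproliferative factor that promotes mRNA deadenylation, and SESN1 a stress-induced inhibitor of mTORC1 signalling. JMJD3 removes methyl groups from H3K27 and has no known DNA-binding domain of its own.

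Promoter sequences of the genes are shown first, whether or not a p53 site was listed over them. A p53 response element is a pair of decamers, each with purines, a central C and G around A or T bases, and pyrimidines, and the consensus reads the same on both strands. RefSeq promoters of GRCh38.p14, 250 bases before and 50 after each start, were found for 5 of the 7 genes, with 8 starts in all. They were searched for the pair with the fewest mismatches over its 20 bases, with a spacer of 0 to 13 bases. Capitals mark the decamers of that pair, and bases are counted from 0 at the start. The DDB2 stretch is shown because it held a pair with no mismatch, the SESN1 stretch because a p53 site lies at the same distance from the outer start, and the others for comparison with the consensus, leaving out the best pairs of the outer DDB2 and middle SESN1 starts, which had more mismatches than their neighbours.
DDB2, inner start, chr11:47214934-47214999, plus strand: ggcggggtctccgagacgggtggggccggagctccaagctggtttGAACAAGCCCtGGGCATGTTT
SESN1, innermost start, chr6:109008989-109009082, minus strand: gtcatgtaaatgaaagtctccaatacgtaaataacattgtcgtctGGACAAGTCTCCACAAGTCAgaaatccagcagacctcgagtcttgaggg
SESN1, outer start, chr6:109095058-109095088, minus strand: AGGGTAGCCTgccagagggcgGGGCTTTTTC
XPC, chr3:14178570-14178589, minus strand: GAATTTGCCCAGACAAGCAA
BTG2, chr1:203305505-203305524, plus strand: GGGAAAGTCCGGGCAGAGCC
POLH, chr6:43576005-43576027, plus strand: CAACTCGCGCtggGAAGAAGCCG

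The DDB2 pair had 0 mismatches with a spacer of 1 base and lay 5 to 25 bases after the inner of 2 annotated starts. A pair this good was found in 10 of 35114 promoters in the table (0.0285%). At the outer DDB2 start the best pair had 4 mismatches, as few as in 84.2% of all promoters. At the innermost SESN1 start the best pair had 3 mismatches and no spacer, with 1 perfect decamer, 30 to 49 bases upstream of the start. A pair with at most 3 mismatches was in 39.1% of all promoters, while 6.63% held a perfect decamer, so the pair was common and the perfect decamer less so. XPC also had a best pair with 3 mismatches, 12 to 31 bases after the start. BTG2 and the middle SESN1 start also had 4 mismatches, and POLH had 5, which 98.9% matched. The outer SESN1 start, where no p53 site was listed within 50 kb, held a pair with only 2 mismatches and a spacer of 11 bases (7.82% of promoters). Taking the RefSeq and hg18 starts as the same place, which was not checked, the XPC pair lay inside the p53 site listed after IR. The POLH pair, 158 to 180 bases upstream, and the BTG2 pair, from 14 bases upstream to 5 downstream, lay outside every listed p53 site. A match is a description of letters and was not tested as a binding site. GADD45A and RRM2B were not in the promoter table.

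Before IR, p53 was listed at 3 of the 7 genes, DDB2, GADD45A and RRM2B, and after IR at 6, with XPC, POLH and BTG2 added. For comparison, 1.19% of 29362 non-overlapping 100 kb tiles of the genome held a p53 site in untreated cells and 9.79% after IR. The tiles include stretches without genes. In windows of the same size centred on the 4717 JMJD3 sites of untreated cells, 2.80% held a p53 site in untreated cells and 22.9% after IR. All 6 genes had a p53 site within 5 kb of the start after IR, where 1.11% of 10 kb tiles held one. Of the 9 p53 sites, 8 lay within 5 kb and 7 had their centre downstream of the start. The start itself lay inside a p53 site at DDB2, XPC and POLH. SESN1 was the member with no site of either protein within 50 kb in any list.

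JMJD3 was listed near 1 of the 7 genes in untreated cells, GADD45A, and within 50 kb of 6 genes after IR. The shares of 100 kb tiles with a JMJD3 site were 8.96% and 39.2%. Within 5 kb of the start, JMJD3 was listed after IR at DDB2, GADD45A and BTG2, 3 of the 7 genes (5 genes within 10 kb on either side, where XPC and RRM2B enter), and 7.98% of 10 kb tiles held a site. XPC, POLH and RRM2B had a p53 site and no JMJD3 site within 5 kb of the start. Among the 3271 tiles of 10 kb that held a p53 site after IR, 33.4% also held a JMJD3 site, beside 3 of the 6 genes with p53. The tiles were laid without regard to gene starts and include stretches without genes, while the windows were centred on starts. The shares of 7.98% and 33.4% are therefore not like for like with the counts of genes. Whether the 7 genes differ from other gene starts with p53 was not tested, and no enrichment is read from these shares. The numbers of JMJD3 sites per gene after IR were 13 at DDB2, 10 at GADD45A, 10 at POLH, 5 at XPC, 3 at BTG2, 2 at RRM2B and 0 at SESN1. A 100 kb tile held 1.20 JMJD3 sites on average, and 1.81% of tiles held 10 or more. Most of the 43 sites were narrow, with 28 (65.1%) under 200 bp, against 56.0% of the whole JMJD3 list after IR. The narrowest site of that list was 125 bp wide, and in the other 3 lists it was 200 bp, so the JMJD3 lists before and after IR were not cut at the same width. Of the 43 sites, 12 lay within 5 kb of a start, 3 at DDB2, 7 at GADD45A and 2 at BTG2, and 5 of these 12 were at least 200 bp wide.

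**Figure D1:**
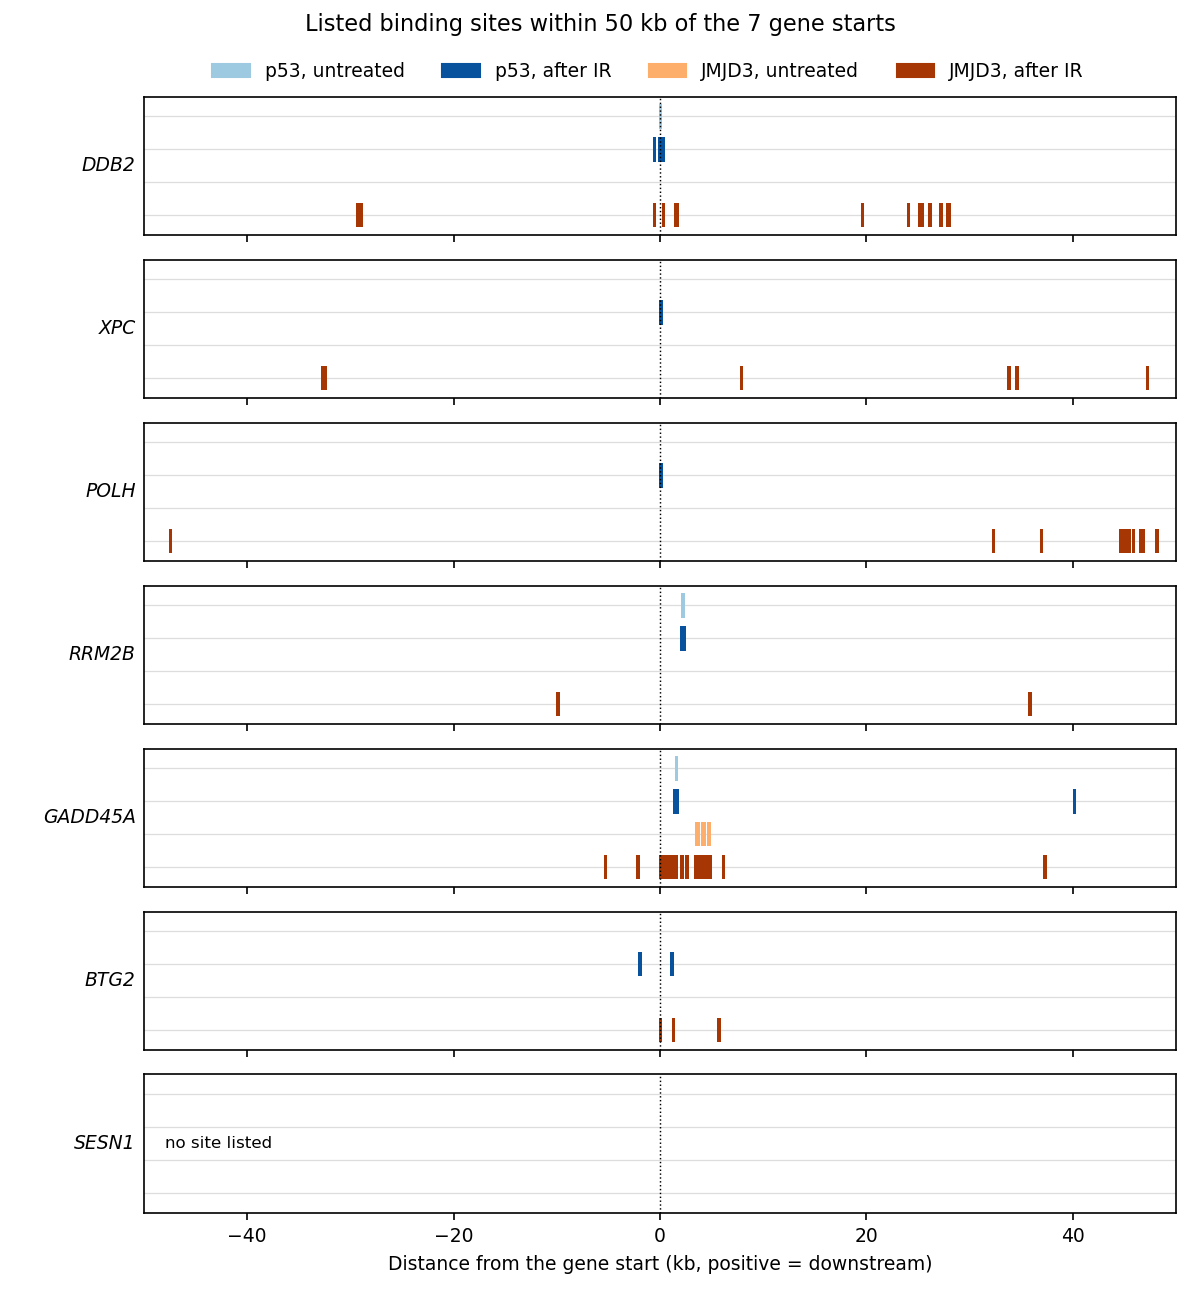
Sites of the 4 lists within 50 kb of each gene start, drawn by distance from the start in kb along the direction of transcription, with 1 row per list and sites under a minimum drawn width widened to stay visible. p53 sites sit at or near 6 starts, JMJD3 sites after IR (43) are spread over the windows, and SESN1 has none.

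DDB2 carried p53 at its start in both conditions. In untreated cells the p53 site reached from 130 bp upstream to 234 bp downstream of the start (chr11:47192940-47193304, hg18). After IR it reached from 164 bp upstream to 517 bp downstream (chr11:47192906-47193587), so that most of the added length lay on the gene side. Its width was 365 bp before and 682 bp after IR, and 97.7% of the p53 sites after IR were narrower. A narrower p53 site of 204 bp appeared after IR between 632 and 429 bp upstream. The promoter table gives 2 DDB2 starts 520 bp apart, and which of them the hg18 start stands for was not resolved here. If it is the inner start, the perfect pair lies inside the p53 site of both conditions. If it is the outer start, the pair begins 525 bp downstream, 8 bp past the end of the site after IR.

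No JMJD3 site was listed within 50 kb of DDB2 in untreated cells, where the nearest lay 54.1 kb downstream. After IR each of the p53 sites was overlapped by a JMJD3 site. The upstream pair shared 133 bp, the whole of the JMJD3 site and 65.2% of the p53 site. At the start the JMJD3 site of 196 bp lay inside the p53 site, from 260 to 455 bp downstream, and covered 28.7% of it. That JMJD3 site began 26 bp past the end of the p53 site of untreated cells, in the stretch that was listed for p53 only after IR. Another JMJD3 site near the start, 489 bp wide, reached from 1.31 to 1.80 kb downstream and overlapped no p53 site. A run of 7 JMJD3 sites lay between 24.0 and 28.1 kb downstream, in the direction of ACP2, the next protein-coding gene in RefSeq. Another 2 sites lay 28.9 to 29.4 kb upstream, in the direction of PACSIN3.

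XPC, the partner of DDB2 in damage recognition, had no p53 site in untreated cells, and the nearest was 652 kb away. After IR a p53 site of 373 bp covered the start, from 101 bp upstream to 271 bp downstream (chr3:14194869-14195241). Of all p53 sites after IR, 74.4% were narrower. JMJD3 was not listed at this site. The nearest JMJD3 site after IR lay 7.52 kb from it, 7.79 to 7.97 kb downstream of the start, and was 184 bp wide. The other 4 JMJD3 sites lay over 30 kb away, the widest being 536 bp, 32.3 to 32.8 kb upstream in the direction of LSM3. In untreated cells the nearest JMJD3 site was 232 kb from the XPC start.

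POLH showed the same arrangement with a longer distance to JMJD3. A p53 site of 392 bp covered the start after IR, from 79 bp upstream to 312 bp downstream (chr6:43651781-43652172), and none was listed within 1109 kb in untreated cells. The JMJD3 site nearest to it after IR was 31.9 kb away, and 64.4% of the 3232 p53 sites had a JMJD3 site closer than that. POLH nonetheless had 10 JMJD3 sites in its window. Of these, 7 formed a run of 3.75 kb from 44.5 to 48.2 kb downstream, towards GTPBP2, with widths from 125 to 404 bp. Another 2 lay 32.2 to 32.4 kb and 36.9 to 37.0 kb downstream, and 1 lay 47.3 to 47.5 kb upstream. A window of 10 kb held none of the 10.

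At RRM2B p53 was listed downstream of the start in both conditions. The site of untreated cells lay 2.03 to 2.44 kb downstream of the start (chr8:103318075-103318487) and was 413 bp wide, wider than 91.7% of the untreated list. After IR it extended on both sides, from 1.89 to 2.54 kb (chr8:103317978-103318630), with a width of 653 bp that exceeded 97.1% of the list. The 2 JMJD3 sites of the window were listed only after IR. They were narrow, 125 bp at 9.79 to 9.92 kb upstream and 164 bp at 35.8 to 35.9 kb downstream. JMJD3 was 11.7 kb from the p53 site, which was after that of DDB2 the widest p53 site in the windows.

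GADD45A was the gene where both proteins were listed before IR, at different places. The p53 site of untreated cells lay 1.41 to 1.76 kb downstream (chr1:67924878-67925233) and was 356 bp wide. The 3 JMJD3 sites of untreated cells lay farther downstream, from 3.44 to 4.95 kb, with widths of 463, 463 and 407 bp. The gap from the first of them to the p53 site was 1676 bp. After IR the p53 site was 555 bp wide, from 1.26 to 1.81 kb (chr1:67924731-67925285). A single JMJD3 site of 1699 bp, from 3.33 to 5.03 kb, then covered all 3 JMJD3 sites of untreated cells. It was the only one of the 43 JMJD3 sites after IR with a counterpart in untreated cells, where 11.9% of the whole list had one.

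A second wide JMJD3 site was listed at GADD45A after IR only. It was 1289 bp wide, reached from 0.490 to 1.78 kb downstream and shared 518 bp with the p53 site, 93.3% of it. The JMJD3 centre lay 404 bp nearer to the gene start than the p53 centre. Both wide JMJD3 sites exceeded 99.5% or more of the list in width. Around them stood 5 JMJD3 sites of 147 to 200 bp, of which 1 covered the start, and together these 7 sites spanned 6.27 kb. The last of the run lay 6.06 to 6.23 kb downstream, so the run is not the set of 7 sites counted within 5 kb. That set instead holds a JMJD3 site of 125 bp, 2.09 to 2.22 kb upstream. Another JMJD3 site, 177 bp wide, lay 5.20 to 5.37 kb upstream. A further p53 site of 250 bp was listed after IR from 40.0 to 40.3 kb downstream, in the direction of GNG12, with a JMJD3 site 2.64 kb away.

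BTG2 had neither protein listed within 50 kb in untreated cells. The nearest p53 site was then 1836 kb and the nearest JMJD3 site 251 kb away. After IR 2 p53 sites and 3 JMJD3 sites were listed, all 5 within 6 kb of the start. One p53 site of 417 bp lay 0.949 to 1.36 kb downstream (chr1:201542239-201542655) and was overlapped by a JMJD3 site of 187 bp, with 156 bp shared. The other p53 site, 229 bp wide, lay 1.81 to 2.04 kb upstream, and the nearest JMJD3 site was 1.74 kb from it. A JMJD3 site of 203 bp covered the start, where no p53 site was listed. The remaining JMJD3 site, 182 bp wide, lay 5.65 to 5.83 kb downstream.

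**Figure D2:**
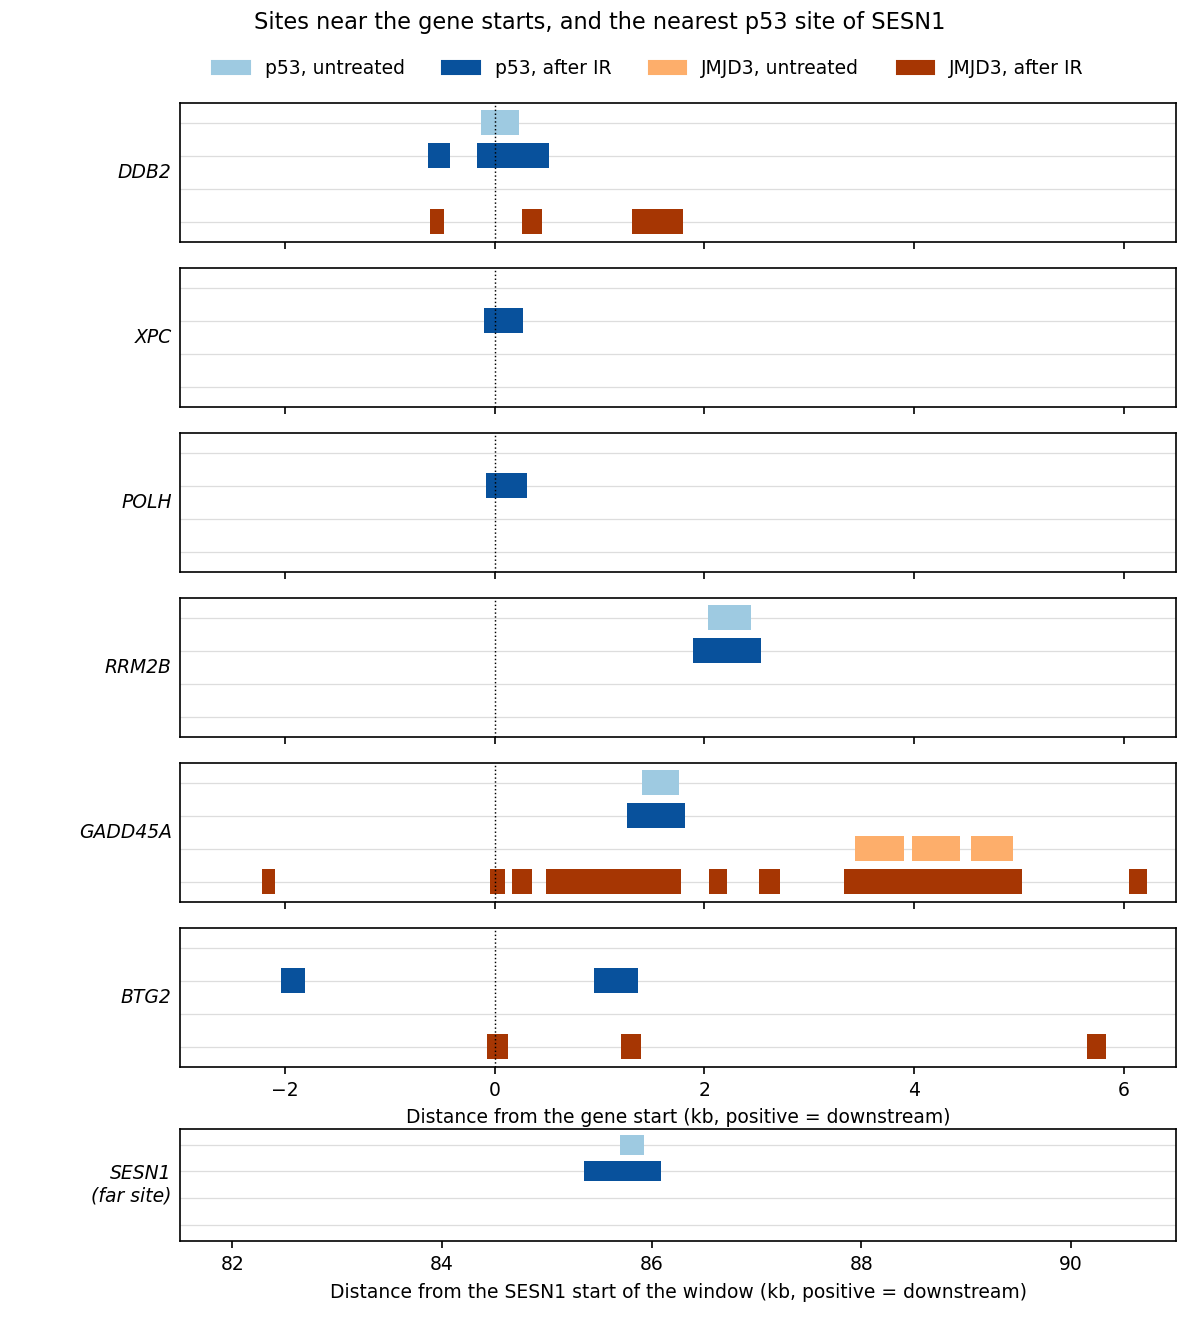
Sites from 3 kb upstream to 6.5 kb downstream of 6 gene starts, to scale, and in the lowest panel the sites around the nearest p53 site of SESN1, by distance from the SESN1 start in kb. p53 covers the start at DDB2, XPC and POLH, JMJD3 accompanies p53 at DDB2, GADD45A and BTG2, and no JMJD3 site is drawn at XPC, POLH, RRM2B or SESN1.

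SESN1 had no site within 50 kb of the start used here, and its nearest p53 site was looked up after this was seen. It lay 85.4 to 86.1 kb downstream (chr6:109436608-109437342), was 735 bp wide and ranked 54 by width among the 3232 p53 sites after IR. The same place was listed in untreated cells as a site of 228 bp, from 85.7 to 85.9 kb (chr6:109436776-109437003). RefSeq gives SESN1 further starts 85.3 and 85.9 kb inside the outer one on GRCh38.p14, and the pair printed for the innermost start lies 85.8 kb from the outer start on that assembly. These distances belong to different assemblies and positions were not converted, but both annotated distances fall beside or within the span of the p53 site. No JMJD3 site was listed in untreated cells within 50 kb of this p53 site, and after IR 1 was, 207 bp wide, with 24521 bp between them. Of the sites just outside the 50 kb limit, the nearest were a JMJD3 site after IR at DDB2 (52.3 kb) and a p53 site after IR at GADD45A (53.4 kb), and the farthest inside were a JMJD3 site at POLH (48.1 kb) and the p53 site at GADD45A (40.0 kb).

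The p53 sites listed in both conditions were wider after IR. The ratio of widths was 1.87 at DDB2, 1.58 at RRM2B and 1.56 at GADD45A. The far SESN1 site widened most, by a ratio of 3.22, from below the median of its list (295 bp) to far above that of the list after IR (288 bp). Widening was general, since in all 345 overlapping pairs of a p53 site before and after IR the site after IR was the wider one, with a median ratio of 1.84 and quartiles of 1.58 and 2.11. The ratio at SESN1 exceeded 98.0% of these pairs, while those at RRM2B and GADD45A lay near the lower quartile. Among the 9 p53 sites after IR, 3 were at places already listed before IR (33.3%, exact 95% interval 7.49 to 70.1%), against 10.6% of the whole list. The 6 sites listed only after IR were 204 to 417 bp wide, narrower than each of the 3 that were listed before. The whole list after IR showed the same contrast, with a median width of 541 bp for the 343 sites that overlapped one of untreated cells and 272 bp for the other 2889.

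**Figure D3:**
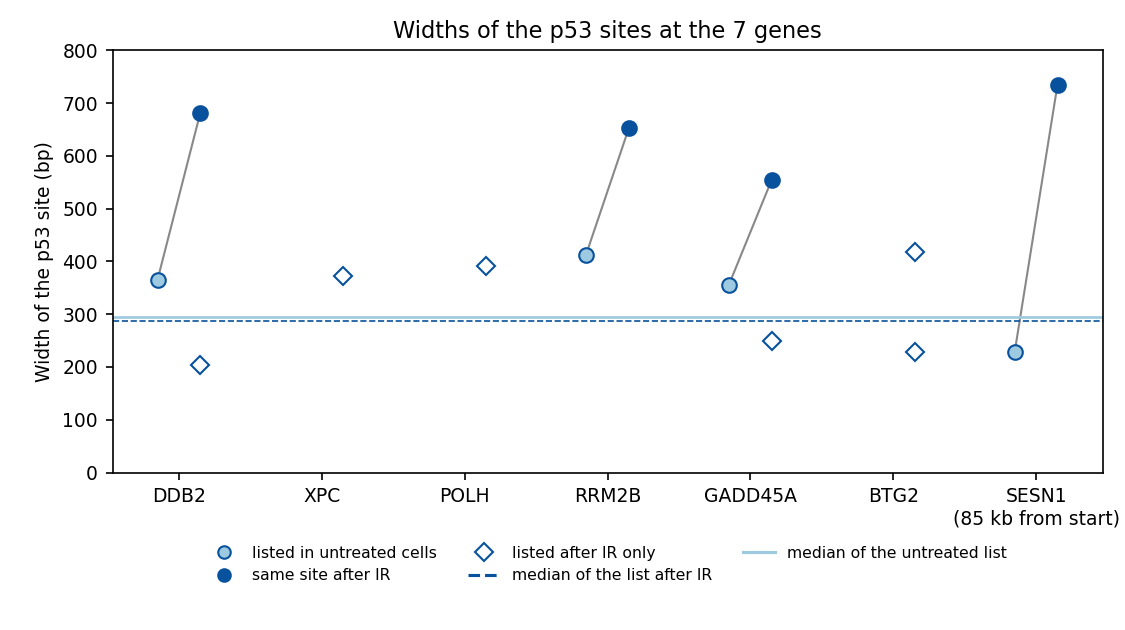
Width in bp of each p53 site at the 7 genes, with lines joining sites listed in both conditions, open diamonds for sites listed after IR only, and horizontal lines at the medians of both p53 lists (295 and 288 bp). The joined sites rise to 555 bp or more, above every site listed after IR only.

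Of the 9 p53 sites after IR, 4 overlapped a JMJD3 site after IR (44.4%, exact 95% interval 13.7 to 78.8%), which were both sites of DDB2 and 1 each at GADD45A and BTG2. Over the whole list the share was 21.2%, inside that interval. The count was 2 when 50% of the p53 site had to be covered, 2 when its centre had to lie inside a JMJD3 site, and 2 without DDB2. Sites of 1 gene are not independent, and the interval covers counting error only. None of the 9 overlapped a JMJD3 site of untreated cells, where 2.63% of the whole list did. The shared length ranged from 28.7% to 93.3% of the p53 site, and centres were 18 to 404 bp apart. Among the p53 sites without overlap, the nearest JMJD3 site was 1.74 kb away at BTG2, 2.64 kb at GADD45A, 7.52 kb at XPC, 11.7 kb at RRM2B and 31.9 kb at POLH. In the whole list 65.4% of p53 sites had no JMJD3 site within 5 kb, and the median distance was 15.6 kb. From the side of JMJD3, 4 of the 43 sites at these genes overlapped a p53 site (9.30%, exact 95% interval 2.59 to 22.1%), against 2.02% of the list, which lies below that interval. The windows were placed at p53 target genes and held 1.29 p53 sites each, against 0.110 per 100 kb tile and also 6.14 JMJD3 sites after IR each, against 1.20. The part of this density in the shares of 9.30%, 44.4% and 33.3% was not tested, and nothing is read from their distance to the list. Outside GADD45A, each of these overlaps was with a JMJD3 site narrower than 200 bp. With JMJD3 sites under 200 bp left out, 1 of the 9 p53 sites was overlapped, the one at GADD45A, and the share of the whole list fell as well, from 21.2% to 12.1%.

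**Figure D4:**
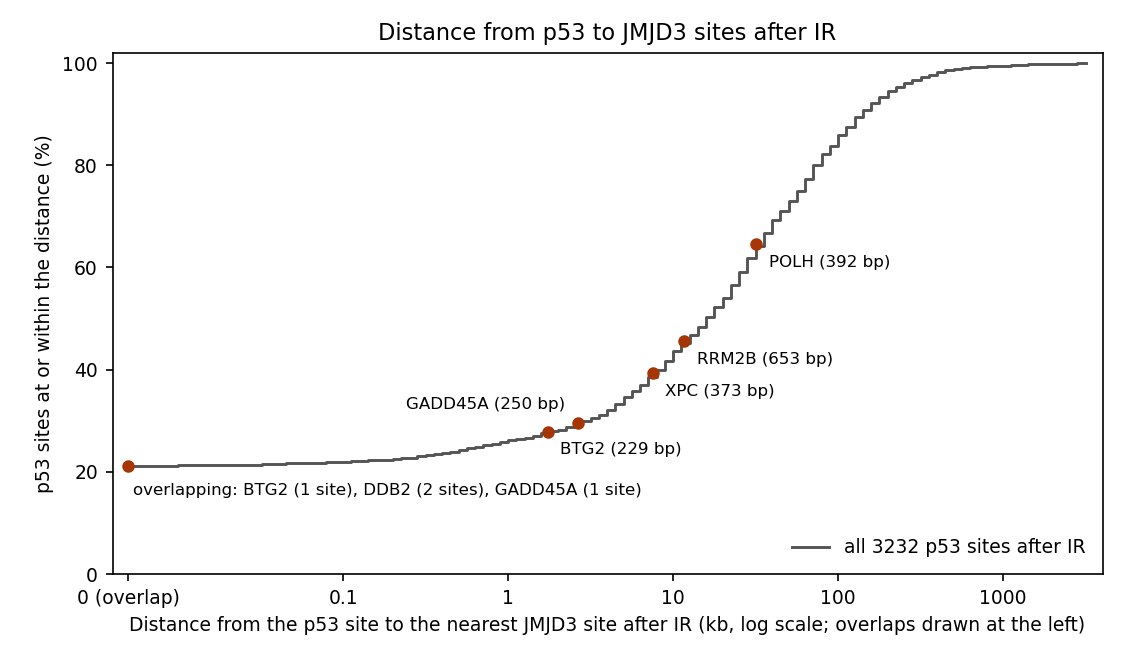
Share in percent of the 3232 p53 sites after IR with a JMJD3 site at or within a distance (kb, log scale, overlaps at the left), with the sites of the genes marked on the curve. The curve begins at 21.2% for overlaps, which hold 4 of the 9 sites, and the POLH site is the farthest at 31.9 kb.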

How the data were processed

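Binding sites of p53 and JMJD3 were analysed in untreated and irradiated BJ cells, with 1 library for each list. The authors aligned tags to hg18 with Bowtie version 0.12.7, keeping uniquely aligned tags, and ran MACS version 2 on each library against an IgG control. The sources used here do not give the threshold. The IgG library, labelled as untreated, was left out. The deposited lists give chromosome, start and end, without score or read number, so depth is unknown and no count of reads could be made. Tags that align to several places are missing from every list.

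Positions are printed counting from 1. Sites were assigned to a gene within 50 kb of its approximate start, and overlap required 1 bp. Tiles ran over the span of the lists on each chromosome. Intervals are exact (Clopper-Pearson), from scipy 1.17.1, with numpy 2.4.6 in Python 3.11.15 and figures from matplotlib 3.10.9. Overlap, window and motif steps were tested on simulated data. Strand came from the RefSeq promoter table, and for GADD45A and RRM2B from general knowledge. No gene positions of hg18 beyond the 7 starts were at hand, so other p53 targets, exons and introns were not analysed here. The genes, windows and comparisons were chosen with earlier results of these data known. All 7 genes were named by rule, with each p53 site and each JMJD3 site within 5 kb. The far SESN1 site was named after its values were seen.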

Additional observations from a re-analysis of the deposited data

How the results depend on the processing

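Of 44 recomputed counts, 32 stayed within 1.5 times the reported value and 12 moved by more. The count of p53 sites after IR (9) and before IR (3), and of genes with p53 within 5 kb (6), stayed within that range under every alternative run. At the edge of that range, the 9 sites fell to 6 with the wider 50% of the list, and the 6 genes to 4 at a distance of 1 kb. The 43 JMJD3 sites after IR fell to 17 with a window of 10 kb, 12 with 5 kb, 21 with the wider 50% of the list, 23 when sites within 1 kb were merged and 15 with sites of at least 200 bp, each of which counts less by construction. The 3 JMJD3 sites of untreated cells became 6 with a window of 100 kb and 1 when merged, since all 3 are neighbours at GADD45A. The 4 p53 sites overlapped by JMJD3 became 1 with JMJD3 sites of at least 200 bp, 2 when 50% of the p53 site had to be covered, 2 when its centre had to lie inside a JMJD3 site, and 2 without DDB2. Genes with both proteins became 5 at a distance of 10 kb, where XPC and RRM2B enter, and 2 at 1 kb. The 5 kb windows, the count without DDB2 and a distance of 100 kb for p53 (7 genes, with SESN1) were added after the data were examined. No paired analysis was possible because there was 1 library per condition. Width stands in for a stricter threshold, as the lists hold no score, and unknown depth limits every comparison before and after IR.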
